A study of Mus musculus with 4 samples.

Results

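Mesothelin, encoded by Msln, is a glycoprotein anchored to the surface of mesothelial cells, and its gene stood among those that rose most between the groups of mouse fibroblasts studied here. The genes described are Msln and 9 further genes used as markers of mesothelium or of simple epithelia: the uroplakins Upk1b and Upk3b, the transcription factors Wt1 and Bnc1, the leucine-rich repeat gene Lrrn4, and the keratins Krt7, Krt8, Krt18 and Krt19. They are 10 of 22180 named genes measured. A row of the array table was taken where its only gene symbol was one of these names, and the brightest row by mean log2 intensity over the 4 arrays stood for the gene. All 10 were found, in 11 rows. Msln was chosen by its difference between the groups in these arrays, so its values are given as a description without a test. The other 9 were chosen as known markers, but with earlier results of these data known. Their rows were selected on brightness over all arrays, which did not use the groups.

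The study asked how zinc balance in the cell affects the Golgi and the area around the nucleus. It compared fibroblasts of wild-type mice (WT) with fibroblasts of mice labelled Zip13KO, which the design text gives as Zip13-/-. Zip13 is a transporter of the ZIP zinc importer family, encoded by Slc39a13. Each group had 2 biological replicates, each hybridised to 1 Affymetrix Mouse Gene 2.0 ST array, and no further treatment is named in the labels. The sources used here do not give the age, sex and strain of the mice, the organ that the fibroblasts came from, the allele or the time in culture. They also do not say whether each replicate had its own animal or culture, so the p-values below measure only the spread between these arrays, some of which may be technical.

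Mesothelium is the single layer of flat cells that covers the lungs, heart, abdominal organs and body wall. Mesothelial cells make simple keratins as epithelia do, also express mesenchymal genes, and can turn into fibroblast-like cells. Mesothelin is used as a marker of this layer and of tumours that arise from it, and it binds the mucin MUC16. The comparison asked whether Msln rose together with other genes of this cell type.

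The median intensity of an array, on the deposited linear scale, lay between 94.5 and 96.1. Slc39a13 was measured at 491 and 461 in WT and at 474 and 506 in Zip13KO, so the groups overlapped. The part of the gene altered in the mice and the position of the probes are not known here, so this value checks no label. Directions follow the labels as given. The deposited values come with no call of presence or absence, so a dim gene cannot be called absent, and the brightness of different probe sets does not rank their transcripts.

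Msln intensity was 184 and 165 on the WT arrays and 1335 and 1398 on the Zip13KO arrays. Both Zip13KO arrays stood far above both WT arrays. On the log2 scale the mean rose from 7.45 ± 0.11 to 10.42 ± 0.05 (SD, n = 2 each), a difference of 2.97 (SE 0.08) or 7.84-fold. Without any 1 of the arrays the difference lay between 2.89 and 3.05. In RNA from whole cultures, more cells with the transcript and more transcript per cell cannot be told apart.

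**Figure D1:**
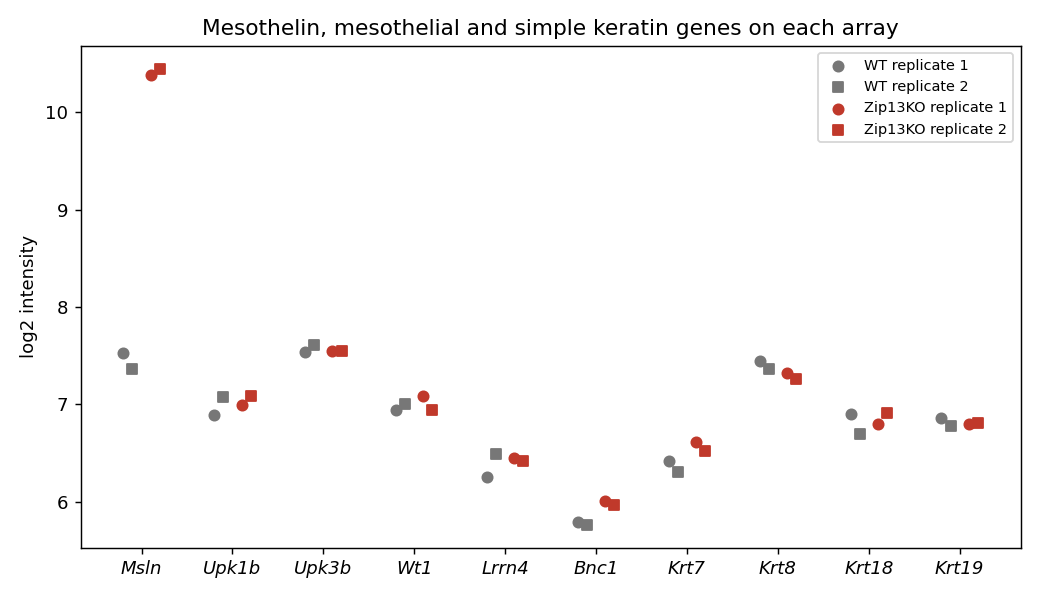
Log2 intensity of the 10 genes on each of the 4 arrays (grey, WT; red, Zip13KO; circles, replicate 1; squares, replicate 2). Msln is at 7.53 and 7.36 on the WT arrays and at 10.38 and 10.45 on the Zip13KO arrays, while the other 9 genes stay between 5.76 and 7.61 on all arrays.

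None of the other 9 genes passed the test in either direction. In the limma fit over all genes, with Benjamini-Hochberg adjustment over all of them and a threshold of adjusted p under 0.05, 0 of 9 were called higher and 0 lower, where 17.1% of all genes were called (7.00% higher and 10.1% lower). At an unadjusted p under 0.05, 2 were higher and 0 lower. Their differences ran from -0.11 to 0.21 log2 units with a median of 0.06, beside a median of -0.00 over all genes. The arrays of the groups did not overlap for 3 of the 9, against 51.5% of all genes. Of these, 2 were higher in Zip13KO (24.1% of all genes) and 1 was lower (27.3%). The highest upper bound of the 95% intervals of these differences was 0.38 log2 units, for Krt7, which is 1.31-fold. Rises of intensity beyond that size are therefore outside the intervals of all 9. The intervals are for probe set intensity, and Lrrn4, Bnc1 and Krt7 were dim enough to be removed by a filter on low values. Upk1b, Wt1, Krt18 and Krt19 were kept by that filter but were also dim, at 104 to 136 beside array medians of 94.5 to 96.1. Whether a dim probe set would show a larger change of transcript was not tested.

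**Figure D2:**
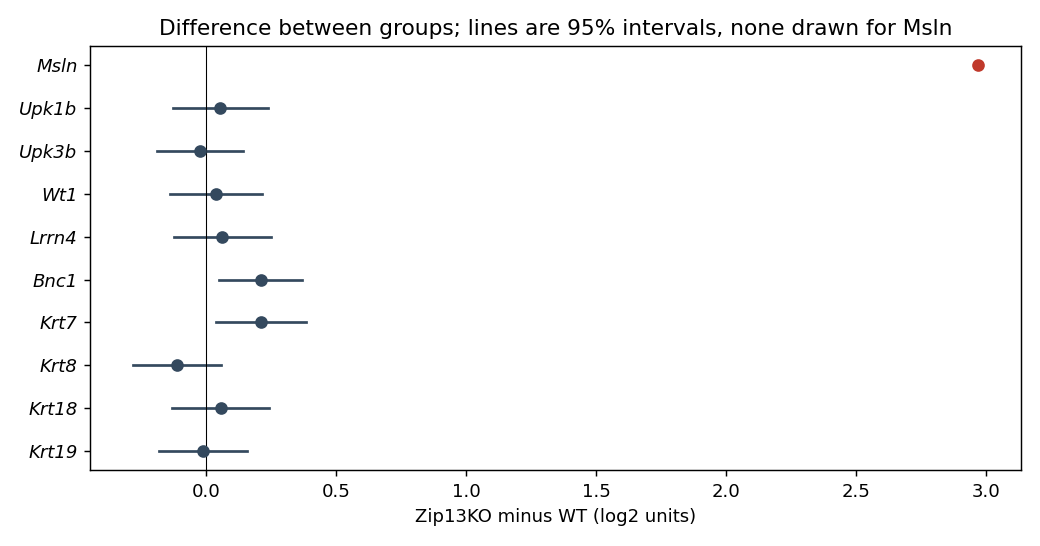
Difference between Zip13KO and WT in log2 units for the 10 genes, with points for the difference and lines for the 95% interval of the fit; Msln, chosen for its difference, is drawn without an interval. Msln lies at 2.97, and the intervals of the other 9 genes lie between -0.28 and 0.38.

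Among the genes described, none of the 3 surface genes of mesothelium besides Msln passed the test. Uroplakins form the plaques of the bladder lining and some are also made by mesothelium. Upk3b, which is used as a mesothelial marker, was at 186 and 195 in WT and at 188 and 187 in Zip13KO. Its difference was -0.02 log2 units (95% interval -0.19 to 0.14, limma adjusted p = 0.910). Upk1b, a tetraspanin that pairs with other uroplakins in the bladder, was at 119 and 135 in WT and at 127 and 136 in Zip13KO. Its groups overlapped, with a difference of 0.06 (95% interval -0.13 to 0.24, adjusted p = 0.786). Lrrn4, a membrane protein with leucine-rich repeats, was at 76.2 and 90.0 in WT and at 87.5 and 85.6 in Zip13KO. Its Zip13KO values lay between those of the WT arrays (difference 0.06, 95% interval -0.12 to 0.25, adjusted p = 0.755).

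Neither of the transcription factors passed, with Bnc1 the nearer to the threshold. Wt1, which controls the development of mesothelium, kidney and gonads, was at 123 and 128 in WT and at 136 and 123 in Zip13KO. The groups overlapped, and the difference was 0.04 log2 units (95% interval -0.14 to 0.22, adjusted p = 0.858). Bnc1 encodes basonuclin, a zinc-finger protein of keratinocytes, germ cells and mesothelium. It was at 55.5 and 54.3 in WT and at 64.4 and 62.6 in Zip13KO. Both Zip13KO arrays were above both WT arrays, by 0.21 log2 units (SE 0.08, 95% interval 0.05 to 0.37), and the adjusted p was 0.0717 (limma, unadjusted p = 0.0135). Bnc1 did not pass under any of the 12 alternatives in which it was tested (adjusted p from 0.0515 to 0.280). By the RefSeq gene table for GRCm38.p6, Wt1 and Lrrn4 are on chromosome 2, as is Slc39a13, Msln is on chromosome 17 and Bnc1 is on chromosome 7.

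None of the 4 simple keratins passed, and their differences had both signs. Keratin filaments need 1 partner of type I, such as Krt18 and Krt19, and 1 of type II, such as Krt7 and Krt8. Krt8 and Krt18 are the usual pair of simple epithelia. Krt8 was at 175 and 165 in WT and at 161 and 153 in Zip13KO, both Zip13KO arrays below both WT arrays, with a difference of -0.11 log2 units (95% interval -0.28 to 0.06, adjusted p = 0.443). Its partner Krt18 was at 119 and 104 in WT and at 111 and 120 in Zip13KO, with overlap (difference 0.06, 95% interval -0.13 to 0.24, adjusted p = 0.789). A second row for Krt18 was at 98.2 and 107 in WT and at 101 and 92.7 in Zip13KO, a difference of -0.08, so the rows differed in sign. Krt7, found in ducts and mesothelium, was at 85.4 and 78.9 in WT and at 98.0 and 92.2 in Zip13KO. The groups did not overlap, and Krt7 was 0.21 log2 units higher (SE 0.08, 95% interval 0.04 to 0.38), with an adjusted p of 0.0980 (limma). Krt19, a type I keratin of ducts, was at 116 and 110 in WT and at 112 and 112 in Zip13KO, and the Zip13KO values lay between those of WT (difference -0.01, 95% interval -0.18 to 0.16, adjusted p = 0.962).

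Among 12 further genes of mesothelium, 1 rose, 2 fell and 9 did not pass, where 7.00% of all genes were higher and 10.1% lower. The median difference of the 12 was 0.01 log2 units. Of the 2 falls, that of Thbd was known from these data when the list was chosen. The 2 that fell did so by far more than the rise. Thbd encodes thrombomodulin, a surface receptor for thrombin used as a marker of mesothelial tumours and also made by endothelium. It fell from 552 and 535 in WT to 78.3 and 91.2 in Zip13KO, a difference of -2.68 (SE 0.09), given as a description without a test. Pdpn encodes podoplanin, a mucin-like surface protein of mesothelium, lymphatic vessels and many fibroblasts. It fell from 2151 and 2193 to 692 and 660 (difference -1.68, SE 0.07, limma adjusted p = 2.91e-12). Efemp1, a fibulin of the matrix that mesothelial tumours secrete, rose from 98.7 and 92.8 to 122 and 128 (difference 0.38, adjusted p = 0.00252), and did not pass when every row of the table was tested (adjusted p = 0.0513). The binding partner of mesothelin, Muc16, was at 50.0 and 49.6 in WT and at 47.7 and 54.7 in Zip13KO (difference 0.04, 95% interval -0.13 to 0.21). Calb2, which encodes calretinin, a calcium-binding protein used to identify mesothelioma, was at 58.4 and 52.0 in WT and at 56.0 and 54.7 in Zip13KO (difference 0.01, 95% interval -0.16 to 0.18). Gpm6a, Cldn15, Nkain4, Podxl, Slpi, Rspo1 and Aldh1a2 differed by -0.06 to 0.08 and did not pass.

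The relatives of the members in their own protein families had median differences near 0, while single genes lay further off. Calls over all genes were 7.00% higher and 10.1% lower. Mslnl, Strc and Otoa, which encode proteins related to mesothelin, had 0 of 3 past the threshold in limma and 0 at an unadjusted p under 0.05. Strc, the stereocilin gene of the inner ear, had the smallest p of these, at a difference of -0.14 log2 units (adjusted p = 0.318). The bladder uroplakins Upk1a, Upk2 and Upk3a had differences of -0.01 to -0.00, with 0 of 3 past the threshold or at an unadjusted p under 0.05. Of 49 other keratin genes, 1 rose and none fell in limma (3 higher and 1 lower at an unadjusted p under 0.05), and their median difference was -0.00. The one that rose was Krt80, a type II keratin, from 158 and 173 in WT to 301 and 318 in Zip13KO, a difference of 0.91 (SE 0.08, adjusted p = 1.80e-07). Krt14, the basal keratin of the epidermis, was at -0.26 (adjusted p = 0.0592). It passed with robust variance (adjusted p = 0.0491) and after Zip13KO replicate 2 was left out (-0.40, adjusted p = 0.00185), while with Zip13KO replicate 1 left out it was at -0.13 (adjusted p = 0.547). With single arrays left out, 1 to 2 of the 49 keratin genes were higher and 0 to 1 lower.

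Genes that keratin filaments attach to, and epithelial genes at large, mostly did not pass. The same holds for all genes measured, of which 7.00% were called higher and 10.1% lower. Of 15 desmosome genes 2 fell and none rose in limma (4 lower and 0 higher at an unadjusted p under 0.05), 4 fell after a filter on low values, and 3 fell with WT replicate 2 or Zip13KO replicate 2 left out. Pkp2, a plakophilin found in simple epithelia and heart, fell from 372 and 341 to 220 and 229 (difference -0.66, SE 0.08, adjusted p = 6.67e-06). Pkp1, a plakophilin of stratified epithelia, fell from 272 and 177 to 141 and 117 (difference -0.77, SE 0.14, adjusted p = 5.42e-04). The WT arrays of Pkp1 lay further apart than those of Pkp2: without WT replicate 1 its difference was -0.46, and it did not pass with robust variance (adjusted p = 0.202) or when every row was tested (0.0992). Of 23 epithelial genes, 2 rose, 1 fell and 20 did not pass, with a median difference of 0.01, and 2 fell with Zip13KO replicate 1 left out. The largest difference on this list was that of Cdh3, described with the nearest genes below. The rise of Cdh3 was known from these data when the list was chosen, so its call is no independent result. Ovol1, a repressor of mesenchymal genes, rose by 0.31 (adjusted p = 0.00878) and Esrp2, a splicing factor of epithelial cells, fell by 0.40 (adjusted p = 0.00238). Neither passed when every row was tested (adjusted p = 0.0828 and 0.0636). Cdh1, the E-cadherin of epithelial junctions, was at 149 and 135 in WT and at 140 and 148 in Zip13KO (difference 0.02, 95% interval -0.15 to 0.20). Epcam, an adhesion protein of epithelia, was at 120 and 109 in WT and at 127 and 126 in Zip13KO (difference 0.15, 95% interval -0.02 to 0.32, adjusted p = 0.280).

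**Figure D3:**
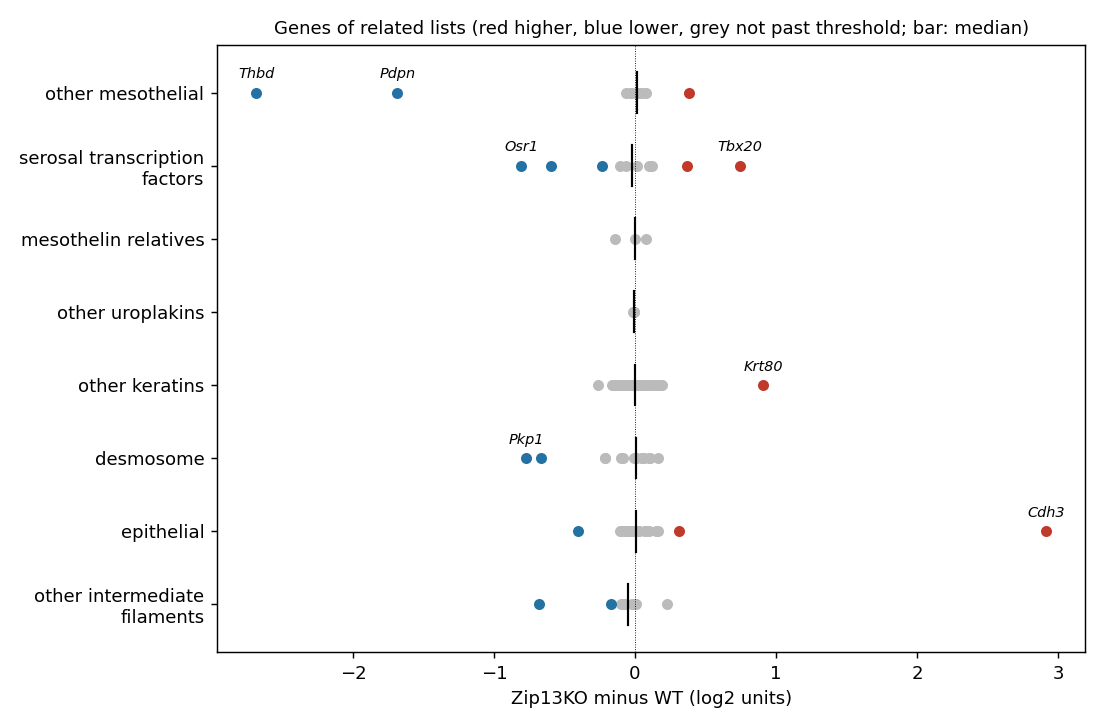
Difference between Zip13KO and WT in log2 units for each gene of 8 related lists (1 point per gene; red, higher; blue, lower; grey, not past the limma threshold; black bar, the list's median). The medians lie between -0.05 and 0.01, and single genes stand out: Thbd at -2.68, Pdpn at -1.68, Krt80 at 0.91 and Cdh3 at 2.91.

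Transcription factors of the serosal layers had calls in both directions, where 7.00% of all genes were higher and 10.1% lower. Of 10 factors, 2 rose, 3 fell and 5 did not pass, and 2 rather than 3 fell with WT replicate 1, WT replicate 2 or Zip13KO replicate 1 left out. Osr1, a factor of intermediate and lateral mesoderm, fell from 2369 and 2548 to 1510 and 1308 (difference -0.81 log2 units, SE 0.07, adjusted p = 2.37e-07). Gata6, which is made in mesothelium and many other tissues, fell from 462 and 484 to 320 and 306 (difference -0.59, adjusted p = 1.34e-05). The third that fell, Tbx18, was near the threshold (difference -0.23, limma adjusted p = 0.0478). With a block for the replicate number, after quantile normalization or when every row was tested, 2 of the 10 factors fell. Tbx20, a T-box factor of the heart, rose from 129 and 116 to 205 and 206 (difference 0.74, adjusted p = 2.95e-06). The other that rose, Nr2f2, was brighter, at 1867 and 1875 in WT and 2416 and 2417 in Zip13KO (difference 0.37, limma adjusted p = 2.32e-04). Gata4, a partner of Gata6 in the heart and gut, was at 137 and 139 in WT and at 143 and 136 in Zip13KO, a difference of 0.02 (95% interval -0.15 to 0.19). Of 10 intermediate filament genes other than keratins, none rose in limma (1 was higher at an unadjusted p under 0.05) and 2 fell. Nes, which encodes nestin, fell by 0.68 (adjusted p = 7.36e-06) and Vim, the vimentin of mesenchymal cells, fell by 0.17 (adjusted p = 0.0361). With WT replicate 1 left out, Vim did not pass (-0.13, adjusted p = 0.383), nor did it when eBayes had no trend (0.159) or when every row was tested (0.175).

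The genes whose values over the 4 arrays were most like those of Msln came from several families. Likeness was the distance between log2 values after each gene's own mean was taken off. Predicted-gene, RIKEN and other clone-type names, microRNAs and other small RNAs were left out of the ranking. The nearest genes were found by the comparison itself, so their values are a description. Cdh3, which encodes P-cadherin, an adhesion protein of basal epithelial cells, was nearest at a distance of 0.06 log2 units. Its intensity was 136 and 120 in WT and 930 and 999 in Zip13KO, a difference of 2.91. Dlk1, an imprinted Notch-related ligand, followed at a distance of 0.09, with 324 and 289 in WT and 2508 and 2408 in Zip13KO. Next were Samd5 (distance 0.22), Adcyap1r1, the receptor for the peptide PACAP (0.36), and the receptor phosphatase gene Ptprq (0.46). All 5 were low on both WT arrays and high on both Zip13KO arrays. The distance counts the size of a difference, so genes with small differences or falls could not be among them. That none of the other mesothelial or simple keratin markers was there therefore adds nothing to their tests.

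**Figure D4:**
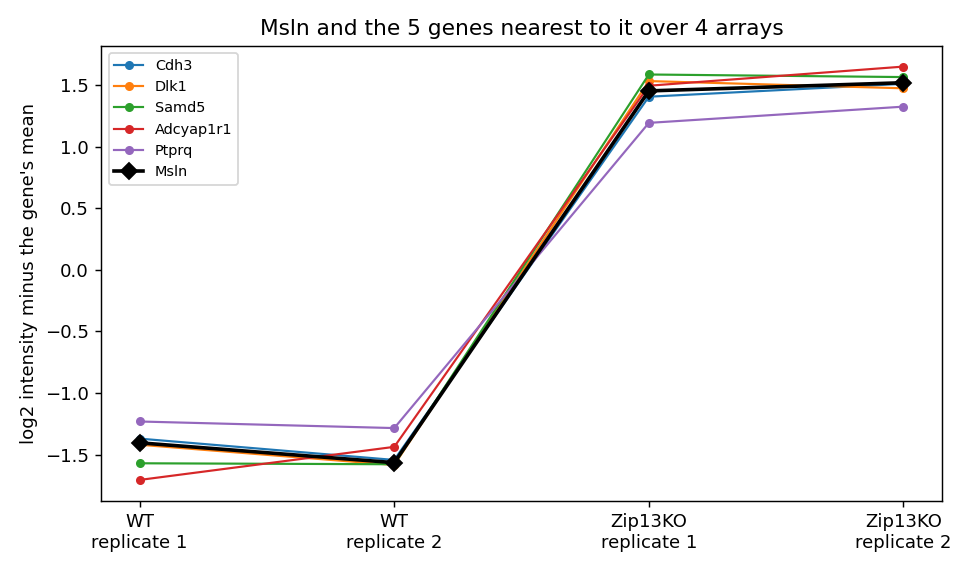
Log2 intensity minus the gene's mean on each array for Msln (black) and the 5 genes nearest to it; lines join the values of 1 gene. Msln runs from -1.40 and -1.57 on the WT arrays to 1.45 and 1.52 on the Zip13KO arrays, and Cdh3 from -1.37 and -1.54 to 1.40 and 1.51.

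The genes beside Msln on chromosome 17 differed far less than Msln. Of the 3 genes on either side in the order of the RefSeq gene table, 4 were measured. Mslnl, next to it, was at 80.6 and 79.2 in WT and at 83.5 and 85.1 in Zip13KO (difference 0.08, adjusted p = 0.639). Rpusd1, for a pseudouridine synthase-like protein, rose from 400 and 360 to 448 and 474 (difference 0.28, adjusted p = 0.0178). Haghl rose from 200.3 and 168 to 223 and 222 (difference 0.28, adjusted p = 0.0366). Ciao3, of cytosolic iron-sulfur protein assembly, did not pass (difference 0.07, adjusted p = 0.655). The call of Rpusd1 was lost with WT replicate 2 left out (0.21, adjusted p = 0.212), with Zip13KO replicate 2 left out (0.24, adjusted p = 0.0787), as the mean of its rows (0.17, adjusted p = 0.169) or when every row was tested (0.128). That of Haghl was lost with WT replicate 2 left out (0.15, adjusted p = 0.447), with Zip13KO replicate 1 left out (0.27, adjusted p = 0.0621) and when every row was tested (0.216). Chtf18 and Gm41550 were not analysed here.

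Several fibroblast genes were bright on all arrays, and markers of other cell types differed between the groups to unequal degrees. Vim was between 6265 and 7375 on all arrays and Col1a1, a chain of type I collagen, was at 2844 and 2692 in WT and at 1414 and 1585 in Zip13KO. The fibroblast markers Lum, Fap and Dpt were dim. Lum, a small matrix proteoglycan, was at 47.7 and 48.2 in WT and at 45.3 and 46.3 in Zip13KO. Fap, a surface protease of activated fibroblasts, was at 69.8 and 66.7 in WT and at 66.0 and 68.8 in Zip13KO. Pdgfra rose from 218 and 212 in WT to 419 and 469 in Zip13KO (difference 1.04 log2 units, limma adjusted p = 2.46e-08). Fbln2 and Pdgfrb were lower in Zip13KO, at -1.41 and -0.92 (limma adjusted p = 6.68e-11 and 2.13e-07). The shares called over all genes were 7.00% higher and 10.1% lower. Of 15 fibroblast markers, 2 rose and 7 fell, and 1 rather than 2 rose with WT replicate 2 or Zip13KO replicate 1 left out. Their summed intensity was 23175 to 24021 in WT and 16489 to 17506 in Zip13KO. Of 8 markers of smooth muscle, 5 were called lower in limma and 0 higher (1 was higher at an unadjusted p under 0.05), and their sum was 14402 to 15031 in WT and 3721 to 3769 in Zip13KO. The sum of 15 mesothelial markers without Msln was 3621 to 3681 in WT and 2155 to 2200 in Zip13KO. These were the 9 other members with Gpm6a, Cldn15, Nkain4, Muc16, Calb2 and Pdpn, so Thbd was not counted. Pdpn alone, at 2151 and 2193 in WT and 692 and 660 in Zip13KO, fell by about as much as the whole sum. The sum of the 9 members other than Msln was 1055 to 1060 in WT and 1072 to 1084 in Zip13KO.

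Lists of other cells gave 0 to 3 calls each, where 7.00% of all genes were higher and 10.1% lower. The sum of 23 epithelial genes was 2389 to 2435 in WT and 3199 to 3246 in Zip13KO. Cdh3 alone, at 136 and 120 in WT and 930 and 999 in Zip13KO, rose by about as much as the whole sum. Of 9 measured keratinocyte markers 0 passed in limma (1 lower at an unadjusted p under 0.05), with sums of 999 to 1032 in WT and 964 to 990 in Zip13KO. Of 8 endothelial markers 0 passed (1 higher at an unadjusted p under 0.05), with sums of 662 to 678 in WT and 693 to 696 in Zip13KO. Of 8 macrophage markers 1 rose and 2 fell, with sums of 814 to 872 in WT and 806 to 839 in Zip13KO. None of these 3 passed when every row was tested (adjusted p from 0.0896 to 0.310). The macrophage gene that rose, Cd68, was at 0.40 and did not pass with WT replicate 2 left out (0.13, adjusted p = 0.562) or with robust variance (0.159). Of those that fell, Csf1r did not pass with WT replicate 1 (adjusted p = 0.212) or Zip13KO replicate 2 (0.255) left out, nor Cd14 with Zip13KO replicate 2 left out (0.0917). Of 6 Schwann cell and melanocyte markers 1 rose, with sums of 574 to 599 in WT and 626 to 636 in Zip13KO; it was Erbb3, which did not pass over every row (adjusted p = 0.0792). No value in the table is 0, so no marker is listed at 0. The part of any of these cell types in the rise of Msln was not tested.

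**Figure D5:**
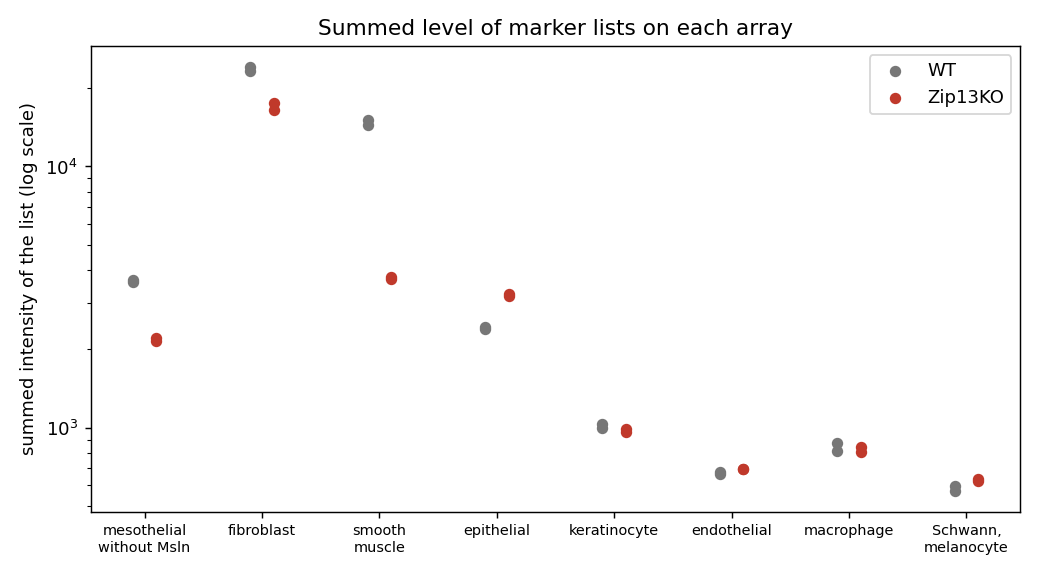
Summed intensity (log axis) of marker lists on each array (grey, WT; red, Zip13KO; 1 point per array). The smooth muscle sum falls from 14402 to 15031 in WT to 3721 to 3769 in Zip13KO. The epithelial sum is higher in Zip13KO by about as much as Cdh3 alone rose. The mesothelial sum without Msln is lower by about as much as Pdpn alone fell.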

How the data were processed

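Fibroblast RNA was hybridised to 4 arrays, per the labels' protocols. The authors deposited intensity values on a linear scale, 1 per probe set and array. The submitters' processing notes name Affymetrix Expression Console and RMA, with no version. RMA removes background, brings the arrays to one distribution and combines the probes of a set, so a shift common to most genes is lost. At which level probes were combined is not given in the sources used here.

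Log2 of the intensity was taken with no pseudocount or filter. Of 41345 rows, the platform annotation gives 23521 a single gene symbol and 1814 several, and 16010 are unnamed here. By gene ID, 23328 of the named rows matched the RefSeq gene table of GRCm38.p6, which changed 0 symbols. The brightest row stood for each of the 1082 genes with several rows.

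All 22180 genes entered limma 3.58.1 in R 4.3.3 (lmFit, eBayes with trend, two-sided, 2 residual and 15.1 prior degrees of freedom), adjusted by Benjamini-Hochberg over all of them. Differences have Zip13KO minus WT as their direction, with moderated standard errors and 95% intervals. With 2 arrays in each group, exact permutation cannot pass the threshold, so calls rest on this model. The fit was also run on data simulated with its own variances and independent arrays, which cannot check those variances or how the replicates relate. The number of arrays limits the precision.

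The members and lists were chosen with earlier results of these data known, among them the rises of Msln and Cdh3 and the fall of Thbd. Named are the members, Slc39a13, up to 3 genes past the threshold per list by size (else the one with the smallest p), the 5 genes nearest to Msln and 3 neighbours on either side. Further list genes (Muc16, Calb2, Gpm6a, Cldn15, Nkain4, Podxl, Slpi, Rspo1, Aldh1a2, Otoa, Upk1a, Upk3a, Gata4, Tbx18, Nr2f2, Cdh1, Epcam, Col1a1, Lum, Fap and Dpt) were singled out after their values were seen. The muscle and endothelial genes that the rule gave are only counted. Alternatives are described with the limits of the results. Plots used matplotlib 3.10.9 in Python 3.11.15.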

Additional observations from a re-analysis of the deposited data

How the results depend on the processing

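The counts of calls and the genes that the naming rule gave were computed again with a block for the replicate number, with dim genes filtered out, after quantile normalization, with array medians set equal, with eBayes lacking the trend or made robust, with rows of a gene averaged, over every row of the table, and without each array. A lone array in a group was taken to vary as the other group did. Msln kept its direction in all of these, at 2.89 to 3.05 log2 units without 1 array. The members other than Msln past the threshold numbered 0 higher and 0 lower in every alternative. The filter removed Lrrn4, Bnc1, Krt7, Krt14, Ovol1, Strc, Upk2 and Mslnl, which were not tested there. List medians, summed intensities, distances to Msln and the genes singled out after their values were seen have no alternative. Over every row, genes past the threshold dropped from 1552 to 669 higher and from 2234 to 1137 lower, and of 125 genes on the mesothelial, epithelial, keratin, desmosome, filament and transcription factor lists 6 rather than 10 were lower; the cause was not tested. Without 1 array, differences that did not pass crossed 0: Upk1b ran from -0.037 to 0.15, Upk3b from -0.059 to 0.0087, Wt1 from -0.037 to 0.11, Lrrn4 from -0.057 to 0.18, Krt18 from -0.046 to 0.16, Krt19 from -0.053 to 0.029, Upk2 from -0.091 to 0.068 and Slc39a13 from -0.0055 to 0.090. Krt18 was at -0.014 as the mean of its rows. Same-numbered arrays deviated in opposite directions (r = -0.16 over 22180 genes), so the numbers are not taken to pair the samples. With the replicate block, 1374 genes were higher and 1990 lower, Vim did not pass (adjusted p = 0.103) and Krt14 did (0.0229). With crossed numbers as the block, chosen after the data were seen, 2203 were higher and 3005 lower.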
